A study of Caenorhabditis elegans with 3 samples.

Results

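Nuclear hormone receptor genes of the nematode Caenorhabditis elegans are described here as they were measured on a 3'-labelled Affymetrix expression array. Members were all genes whose symbol in the array's probe-to-gene table starts with nhr-, read from probe sets annotated to that gene alone. The rule gave 293 probe sets of 254 genes, out of 22625 probe sets and 17138 single-gene entries on the array. Where a gene had several probe sets, the brightest one stood for it. All 254 gene IDs carry the same symbol in the current WBcel235 gene table, which lists 243 of them as protein-coding and 11 as pseudogenes. A further 14 probe sets name an nhr gene together with another gene or gene record, and they were left out of the counts. The receptors HIZR-1, DAF-12, FAX-1, ODR-7, SEX-1 and UNC-55 have other names and were not members.

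Whole young adult hermaphrodites of the wild-type strain N2 were grown on the Escherichia coli strain OP50 and used at 3 days of age. They were sampled at 0 h with no treatment, and after 4 h and 24 h at 20 °C in K-medium with 1 mg/L of multiwall carbon nanotubes (MWCNT), hollow fibres of rolled carbon sheets. There was 1 array per time, so the spread between replicates is unknown, no test was possible, and precision is limited by having only these 3 arrays. No untreated array at 4 h or 24 h was analysed here, so nanotubes, time in the medium, the shift from plates and age cannot be told apart in any comparison.

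Nuclear hormone receptors are transcription factors with a zinc-finger DNA-binding domain and a domain that can bind small lipophilic molecules. Caenorhabditis elegans has a greatly enlarged family, most of which is thought to descend from a receptor of the HNF4 type, while a small group has clear counterparts in insects and vertebrates. In the worm, family members are known for switching on moulting genes in the epidermis, for matching fat and amino acid metabolism to diet in the intestine, and for responses to foreign compounds and pathogens.

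The values are normalized intensities on a linear scale. Ratios are log2 ratios of intensities after 32 was added, which understates changes of dim genes. The terms "higher" and "lower" stand for a ratio of at least 2-fold with the brighter value above the background floor, taking a value under the floor as it was deposited. The floor was 67.8, the highest value of 8 control probe sets for transcripts that are not in the sample. Median intensities of the 3 arrays lay between 100.2 and 102.8. The ratio of 5' to 3' signal was higher at 24 h than at 0 h for the 4 control transcripts examined, for instance 0.579 against 0.382 for GAPDH, and 0.451 at 4 h. Marker genes of cell types also differed between the arrays. The summed intensity of 10 sperm genes was 53089 (0 h), 36824 (4 h) and 7505 (24 h), with none of them at or below the floor. All but ssp-16 were read from probe sets that the manufacturer marks as open to cross-hybridisation. Signal shared between these genes can enter the sum repeatedly. The summed intensity of 9 neuronal genes was 6656, 7626 and 11630, with 1 of them at or below the floor on each array. That of 10 epidermal genes was 31713, 26300 and 17246, with 1 at or below the floor at 24 h. This sum was carried by dpy-13, at 11409 at 24 h against 22732 at 0 h, and grd-3, at 481 against 3662, while dpy-7, at 501 against 234, was higher. The 10 intestinal genes, yolk protein genes among them, summed to 71797, 72951 and 70266 and were all above the floor. Most of this sum came from yolk protein genes and asp-1, and 2 of the 10 genes were lower at both times. These were act-5, with log2 ratios of -1.96 at 4 h and -1.69 at 24 h, and the peptide transporter gene pept-1, with -2.22 and -1.07. The part of RNA quality and of these cell types in the receptor values was not tested. In whole animals, fewer cells of a type and less RNA per cell cannot be told apart.

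At 4 h against 0 h, 4 of the 254 nhr genes were lower and none was higher. The lower ones were nhr-114, which protects the germline from dietary shortage and acts on methionine metabolism, and nhr-137, nhr-3 and nhr-17. They make up 1.57% of the members, against a background of 1.87% of all 17138 genes lower and 0.951% higher. Among the genes whose mean lay above the array median, the same 4 were 5.19% of 77 members, where 3.25% of 8634 genes were lower and 1.71% higher. The members are dim as a group, so their share against the background depends on which genes are counted, and nothing is read from it. The median log2 ratio was 0.00 for the members and 0.00 for all genes. When the arrays were scaled on bacterial hybridisation controls instead, the split turned to 6 higher and 1 lower, among 580 and 136 of all genes. The split turned because that scaling moved the median of all genes to 0.41.

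At 24 h against 0 h, 5 nhr genes were higher and 2 were lower. The higher ones were nhr-25, a receptor of the SF-1 type needed in the epidermis and for moulting, and nhr-88, nhr-18, nhr-19 and nhr-133. The lower ones were nhr-114 and nhr-137. The members' shares were 1.97% higher and 0.787% lower, against a background of 2.98% higher and 4.67% lower among all genes. Above the array median, 6.49% of the 77 members were higher and 2.597% lower, against 5.32% and 7.96% of the 8634 genes. The median log2 ratio was 0.03 for the members and 0.00 for all genes. Scaling on the hybridisation controls gave 27 higher and 1 lower, among 2138 and 338 of all 17138 genes. The median of all genes was then 0.60, so every direction given here holds relative to the bulk of the genes measured.

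At 24 h against 4 h, nhr-3, nhr-17 and nhr-105 were higher and no member was lower. This is 1.18% of the members, against a background of 1.32% higher and 1.68% lower among all genes. Above the array median, it is 3.896% of the 77 members, against 2.28% higher and 3.22% lower of the 8634 genes. The 3 comparisons share arrays and are given side by side.

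**Figure D1:**
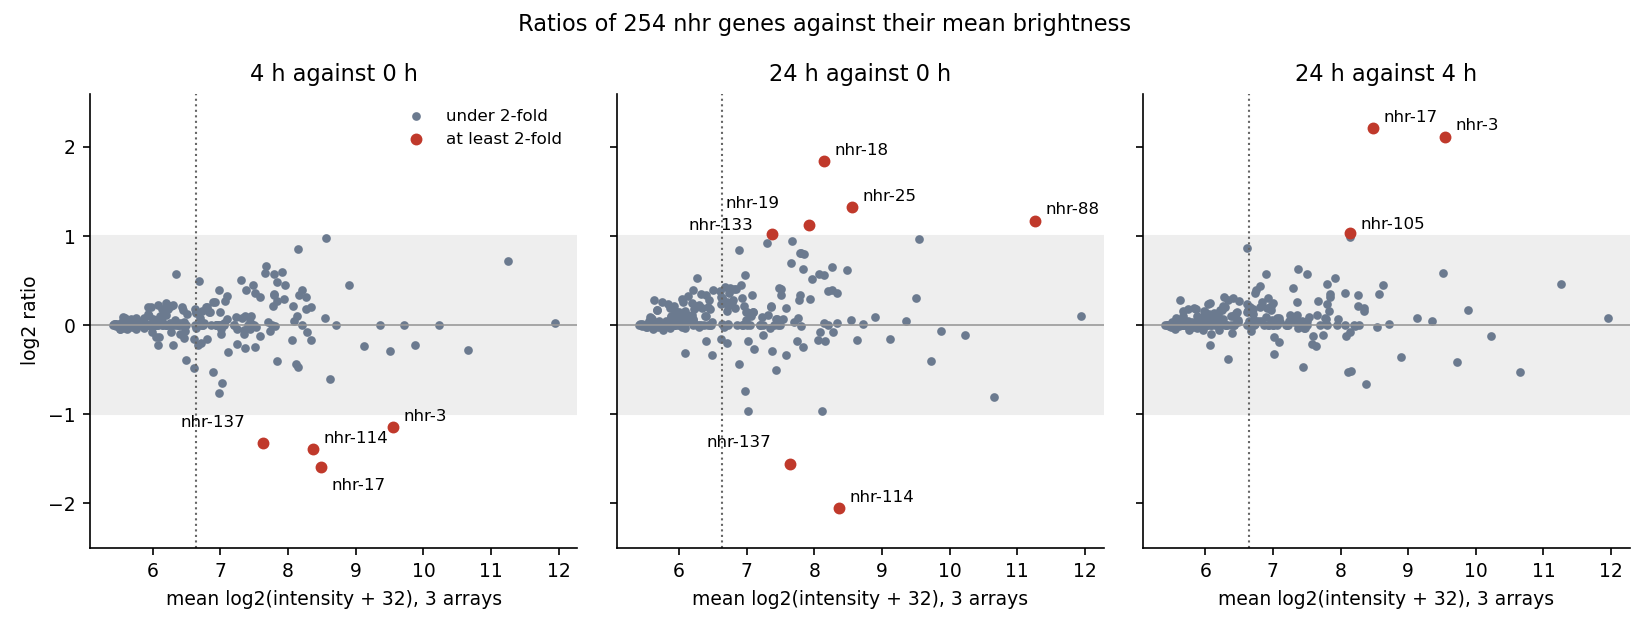
Log2 ratio (vertical axis) of each of the 254 nhr genes against its mean log2(intensity + 32) over the 3 arrays (horizontal axis), with 1 panel per comparison; red points are at least 2-fold, the grey band lies within 2-fold and the dotted line marks the background floor. At 4 h against 0 h the 4 red points lie below the band, while at 24 h against 0 h 5 lie above it and 2 below.

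The member with the lowest ratio at 24 h was nhr-114 on chromosome V. Its intensity was 702 (0 h), 247 (4 h) and 145 (24 h), with log2 ratios of -1.40 at 4 h and -2.06 at 24 h against 0 h. The level was lower on each later array, and all 3 values lay above the floor. The gene has a single probe set on the array, so no second reading was available. On chromosome X, nhr-137 showed the same order, with 355 (0 h), 123 (4 h) and 99.4 (24 h) and log2 ratios of -1.33 and -1.56. Its nearest neighbour in the family, nhr-173, was at 93.2, 93.2 and 98.4.

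The genes nhr-3 and nhr-17, both on chromosome X, had their lowest value at 4 h. The intensity of nhr-17 was 417 (0 h), 117 (4 h) and 657 (24 h), which gives log2 ratios of -1.60 at 4 h against 0 h and 2.21 at 24 h against 4 h. That of nhr-3 was 748 (0 h), 320.2 (4 h) and 1495 (24 h), with log2 ratios of -1.15 and 2.12. Against 0 h, both lay on the upper side at 24 h, at 0.62 for nhr-17 and 0.97 for nhr-3, short of 2-fold. The second probe set of nhr-3 read 118.8, 82.1 and 249.8 (log2 ratios of -0.40 at 4 h against 0 h and 1.304 at 24 h against 4 h), the same order with a smaller dip. Both probe sets of nhr-3 are of a kind that the manufacturer marks as open to cross-hybridisation. A milder form of this order was seen for nhr-105 on chromosome IV, at 244, 167 and 377, with log2 ratios of -0.47 at 4 h against 0 h and 1.04 at 24 h against 4 h.

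The other 5 genes had values that were higher on each later array. The intensity of nhr-25, on chromosome X, was 190.1 (0 h), 405 (4 h) and 523 (24 h), and its log2 ratio was 0.98 at 4 h, just short of 2-fold, and 1.32 at 24 h. Its other probe set stayed under the floor, at 40.1, 45.7 and 45.7, and gives no second reading. The largest ratio on the higher side was that of nhr-18 on chromosome V, at 119.3, 242 and 510.0 (0.86 at 4 h and 1.84 at 24 h against 0 h). Next to nhr-18 lies nhr-103, at 81.2, 129 and 182 (0.50 and 0.92), whereas the neighbour on its other side, nhr-126, stayed below the floor on all arrays.

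The brightest of the 5 was nhr-88 on chromosome II, at 1549.5, 2564 and 3535, with log2 ratios of 0.71 at 4 h and 1.17 at 24 h. The gene has 3 more probe sets, and their ratios at 24 h were 0.80, 0.16 and 0.46, all above 0 and under 2-fold. The remaining genes were nhr-19 on chromosome II, at 130.3, 214 and 322 (0.60 and 1.12), and nhr-133 on chromosome V, at 87.99, 125 and 212 (0.39 and 1.02). Roles of nhr-3, nhr-17, nhr-18, nhr-19, nhr-88, nhr-105, nhr-133 and nhr-137 are not described here.

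**Figure D2:**
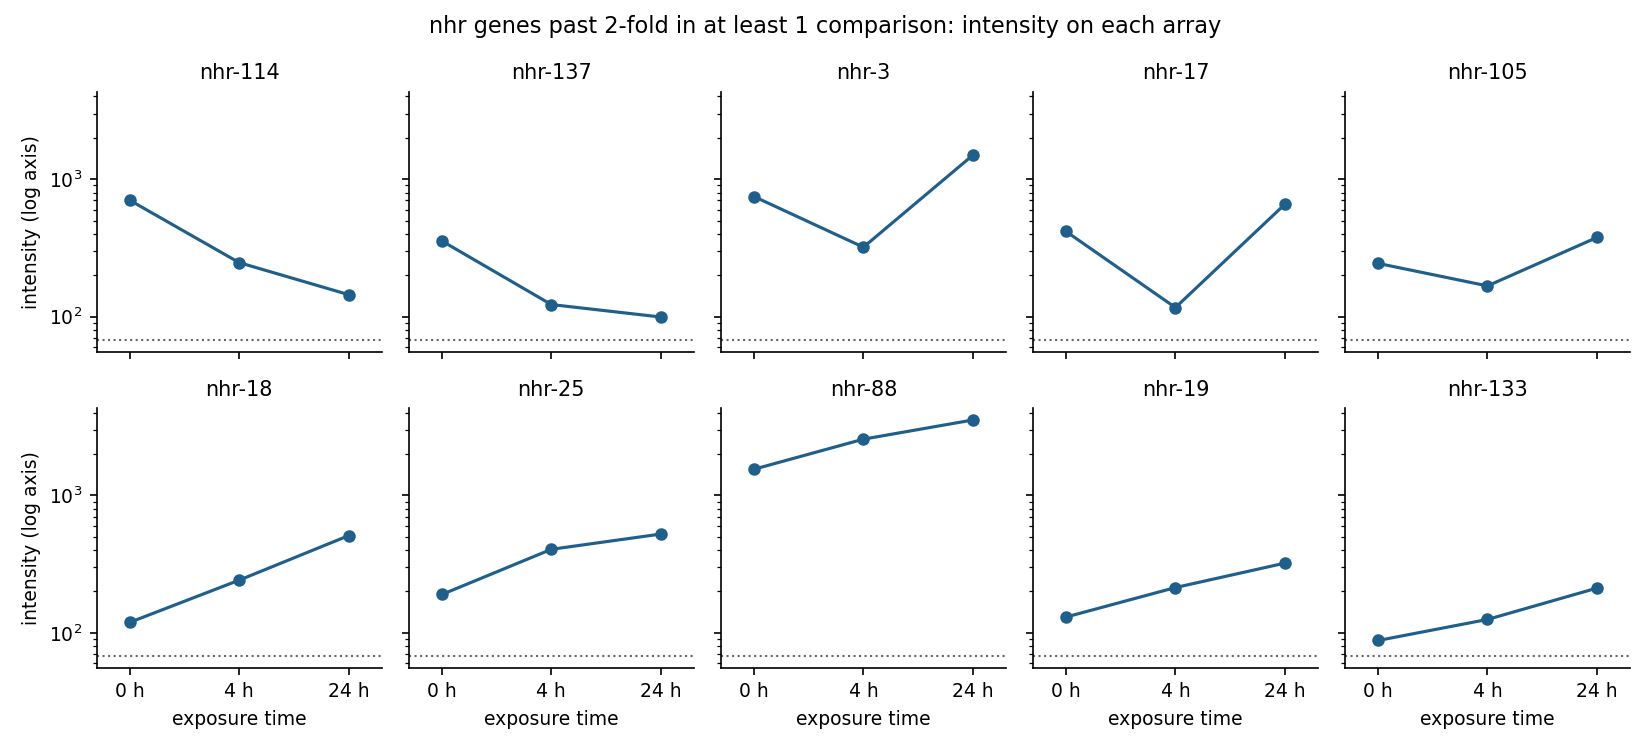
Intensity on a log axis at 0 h, 4 h and 24 h for the 10 nhr genes that passed 2-fold in at least 1 comparison, 1 array per time, with the dotted line at the background floor of 67.8. nhr-114 and nhr-137 are lower on each later array, nhr-3, nhr-17 and nhr-105 are lowest at 4 h, and the 5 genes in the lower row are higher on each later array.

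Several members lay close to the 2-fold line at 24 h against 0 h. On the upper side these were nhr-3 (log2 ratio 0.97), nhr-35 at 238 against 109 (0.94) and nhr-103 (0.92). On the lower side they were nhr-12 at 164 against 351 (-0.97) and nhr-202, whose 24 h value was under the floor, at least 1.89-fold below 156 at 0 h. With a threshold of 1.5-fold, 16 members were higher and 6 lower at 24 h, among 1432 and 1762 of all genes.

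Receptors of moulting and development formed the first of 3 lists by role, with 10 members measured and 7 of them above the floor on at least 1 array. At 4 h none passed 2-fold, and at 24 h nhr-25 was higher and none was lower. The median log2 ratio at 24 h was 0.11. nhr-23, the ROR-type receptor that drives the moulting cycle, was at 192 at 0 h and 191 at both 4 h and 24 h. This probe set is open to cross-hybridisation, as are those used for nhr-6, nhr-80 and nhr-86. The other probe set of nhr-23 stayed under the floor, at 47.1, 46.5 and 46.5, and gives no second reading. nhr-91 was at 65.3, 79.9 and 97.0, with the 0 h value under the floor, so at least 1.29-fold higher at 24 h. The counterparts of insect ecdysone cascade receptors nhr-41 and nhr-85, and the Tailless-type receptor nhr-67, stayed below the floor on all arrays.

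Among the other developmental receptors, nhr-6, the NR4A-type receptor needed for the spermatheca, was at 146, 118.5 and 192. nhr-40, which acts in muscle development, was at 253, 296 and 334 (0.36 at 24 h). nhr-2, known from the early embryo, was at 244, 316 and 212, and nhr-48, a relative of DAF-12, read 91.5 on all 3 arrays. By these probe sets the ratios against 0 h were all under 1.5-fold. A dimmer probe set of nhr-2, at 74.8, 131 and 109, had a log2 ratio of 0.61 at 4 h, where the one above had 0.34. Of 7 known moulting genes downstream of NHR-23 and NHR-25, 1 was higher at 4 h and 3 at 24 h, and none was lower. The shares higher were 0.951% and 2.98% of all genes, and 1.71% and 5.32% of the 8634 genes above the array median. Of 8 embryo markers, 1 was higher at 4 h and 2 at 24 h, and none was lower. These were hch-1, at 592 at 24 h against 99.7 at 0 h (2.24), and ceh-22, at least 2.23-fold higher at 24 h. The median log2 ratio of the 8 was 0.05 at 4 h and 0.21 at 24 h. Their summed intensity was 5610 (0 h), 5809 (4 h) and 5391 (24 h). Most of this sum came from pal-1, at 4957, 4818 and 4009. The cuticle protein gene noah-1 was at 2199 at 24 h against 450.0 at 0 h (2.21), and 1344 at 4 h (1.51). The protease inhibitor gene mlt-11 was at 1053 at 24 h against 239 at 0 h (2.00), and noah-2 at 407 against 120.1 (1.53). The values of mlt-10 were 259, 258 and 284. Of the 10 epidermal markers, which include mlt-10, 1 was higher and 2 were lower at 24 h, with a median log2 ratio of -0.03. The part of these cell types in the moulting gene values was not tested.

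Receptors of fat, diet and metabolite sensing had 10 of 11 listed genes measured, since nhr-62 has only a probe set shared by a pair of gene records. All 10 lay above the floor on every array. Apart from nhr-114 none passed 2-fold, and the median log2 ratio was 0.01 at 4 h and 0.03 at 24 h. nhr-49, which drives fat oxidation and desaturation and has the brightest probe set of the family, was at 3809, 3862 and 4091, a log2 ratio of 0.10 at 24 h. Its known partners were nhr-80 at 180, 163 and 136.6 (-0.33), nhr-13 at 242, 262 and 246 (0.02) and nhr-66 at 2043, 1675 and 1152 (-0.81). The second probe set of nhr-66 had a ratio of -0.12 at 24 h, and that of nhr-49 a ratio of 0.51. All of these ratios lay within 2-fold.

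nhr-64, a regulator of fat storage, was at 213, 273 and 354 (0.66 at 24 h), and nhr-69, which acts on insulin release, at 121, 132 and 145. nhr-76, part of the fat response to serotonin, was at 165, 160 and 106 (-0.51 at 24 h), with 0.05 from its other probe set. Both receptors of the propionate shunt, a B12-independent route that breaks down propionate, stayed within 1.5-fold of their 0 h level by their brightest probe sets. nhr-10 was at 618, 618 and 637, while its second probe set read 173, 211 and 279 (0.60 at 24 h). nhr-68 was at 389, 544 and 416 (0.45 at 4 h and 0.09 at 24 h).

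Genes known to follow these receptors were described from lists of their own. Of 5 propionate shunt genes, 1 was lower at 4 h and 4 were lower at 24 h. The 3-hydroxypropionate dehydrogenase gene hphd-1 was at 1317 at 24 h against 6590 at 0 h (-2.30), and 3106 at 4 h. The acyl-CoA dehydrogenase gene acdh-1 was at 3769 against 10235 (-1.43), ech-6 at 3412 against 9007 (-1.39) and hach-1 at 639 against 1475 (-1.17). The fifth gene, alh-8, was at 6089 against 4065 (0.58). Over all genes, 1.87% were lower at 4 h and 4.67% at 24 h. Above the array median, 3.25% and 7.96% of the 8634 genes were lower. Of the 10 intestinal markers, act-5 and pept-1 were lower at both times too. The median log2 ratio of the 10 was 0.12 at 4 h and -0.01 at 24 h. The part of the intestine in the shunt gene values was not tested.

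Of 10 measured targets of NHR-49 and NHR-80, 3 were lower at 4 h and 5 at 24 h with values taken as deposited. None was higher at either time. By the same rule, 1.87% and 4.67% of all genes were lower, and 3.25% and 7.96% of the 8634 genes above the array median. When each value under the floor was raised to 67.8, 1 target was lower at 4 h and 4 targets at 24 h. The share of all genes was not computed with raised values. At 24 h these included the desaturase genes fat-7, at 527 against 1950 at 0 h (-1.83), and fat-5, at 72.2 against 235 (-1.35), while fat-6 was at 4202 against 3102 (0.43). The hydroxyacyl-CoA dehydrogenase gene hacd-1 was at 381 against 1358 (-1.75). The carnitine palmitoyltransferase gene cpt-5 was at 67.96 against 229 at 24 h (-1.39), and its 4 h value was under the floor, at least 2.62-fold lower. lbp-8, for a lysosomal lipid chaperone, was under the floor at both later times, at least 1.95-fold lower. fmo-2, for a flavin monooxygenase, was at least 1.45-fold lower at 4 h and at 90.9 against 113 at 24 h. The acyl-CoA synthetase gene acs-2, often used as a readout of NHR-49, was at 2214, 3249 and 1794.

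Receptors for foreign compounds, hypoxia, infection and metals had 6 of 7 listed genes measured. The seventh, nhr-33, appears on the array under its later name hizr-1, for the zinc sensor HIZR-1, which was not a member and was at 31.4, below the floor, on all 3 arrays. None of the 6 passed 2-fold at either time, and the median log2 ratio was 0.00 at 4 h and 0.01 at 24 h. nhr-8, known for resistance to toxins and for sterol metabolism, was at 215, 292 and 290.3 (0.38 at 24 h). nhr-14, which acts on iron uptake and defence, was at 164, 195 and 206. nhr-45, known from the detoxification response to failing mitochondria, was at 304, 267 and 309 (0.02 at 24 h), while its second probe set read 113.4, 113.8 and 193 (0.63). nhr-57, a known target of the hypoxia factor HIF-1, was at 232, 168 and 192. nhr-86, which senses a bacterial metabolite, read 263 on all 3 arrays, and nhr-176, which acts on the breakdown of the drug thiabendazole, stayed below the floor at 41.6.

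Targets of this last list passed 2-fold in both directions. Over all genes, 0.951% were higher and 1.87% lower at 4 h, and 2.98% higher and 4.67% lower at 24 h. For the 8634 genes above the array median, the shares were 1.71% and 3.25% at 4 h, and 5.32% and 7.96% at 24 h. The immune genes irg-5 and irg-4, which follow NHR-86, were at 288 against 1729 (-2.46) and at 762 against 4071 (-2.37) at 24 h against 0 h. mul-1 was at 221 at 4 h against 495 at 0 h (-1.06), and 327 at 24 h (-0.55). The ferritin gene ftn-1, listed with NHR-14, was at 4899.7 at 4 h against 519 at 0 h (3.16), and 1300.0 at 24 h (1.27). The iron transporter gene smf-3 was at 98.3 at 24 h against a 0 h value under the floor, at least 1.31-fold higher. Of 4 zinc-responsive genes, the metallothionein gene mtl-1 was higher at both times, at 3165 (4 h) and 2108 (24 h) against 177 at 0 h (3.94 and 3.36). The others stayed within 2-fold of 0 h. The metallothionein gene mtl-2 had log2 ratios of 0.999 at 4 h and -0.71 at 24 h. Those of cdf-2 were 0.97 and 0.51, and those of ttm-1 -0.24 and 0.09. The cytochrome P450 gene cyp-35D1, a target of NHR-176, was at 37.1 at 24 h, under the floor, and 120 at 0 h, at least 1.52-fold lower.

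**Figure D3:**
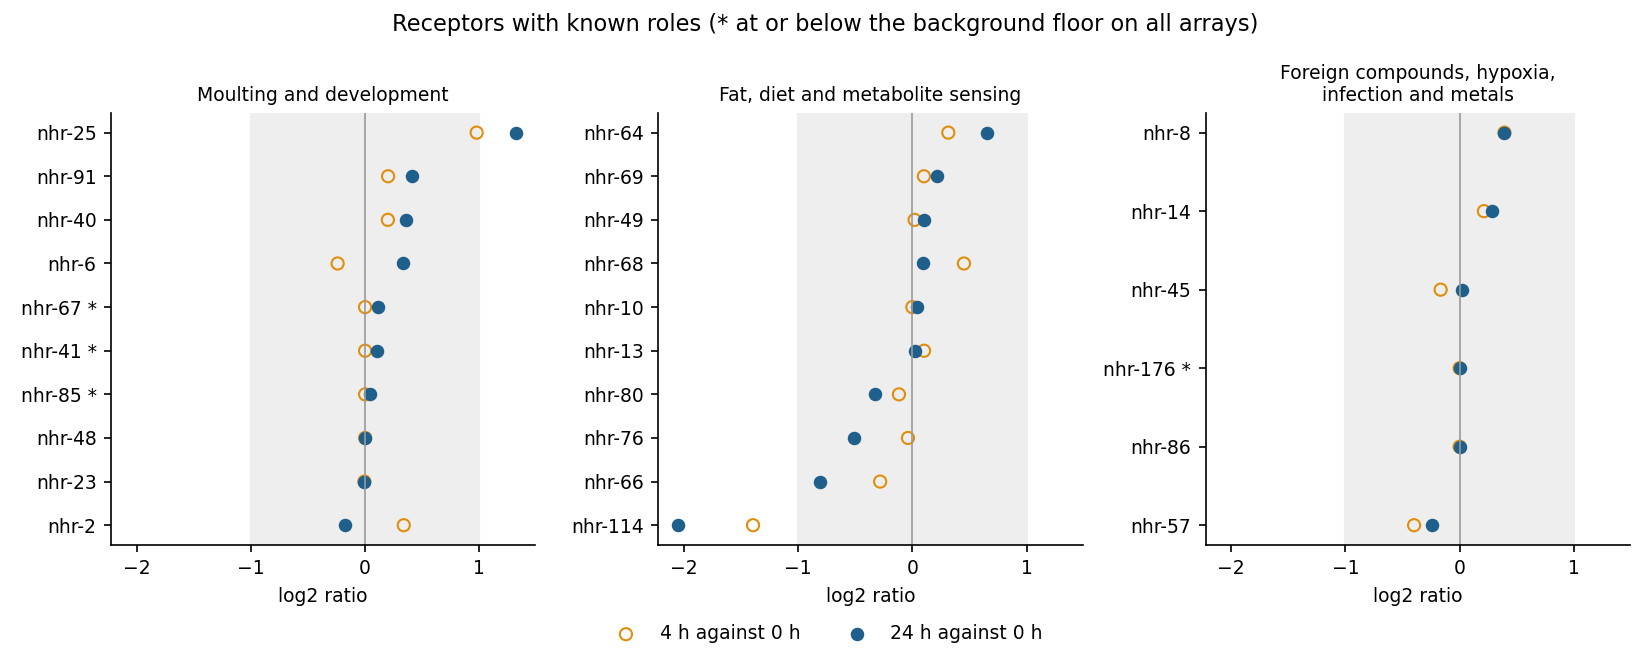
Log2 ratios against 0 h (horizontal axis) of the 26 receptors in the 3 role lists, open circles for 4 h and filled circles for 24 h, with the grey band within 2-fold and stars for genes below the floor on every array. Only nhr-25 at 24 h and nhr-114 at both times lie outside the band.

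Outside the role lists, the 10 members with the brightest probe sets also included nhr-46, nhr-34, nhr-71, nhr-1 and nhr-97. Brightness depends on the probes, and the order is not an order of transcript amounts. nhr-46 was at 1197, 1201 and 1104, nhr-34 at 976, 828 and 932 (-0.06 at 24 h, with 0.40 from its second probe set) and nhr-97 at 578, 486 and 517. nhr-71 was at 892, 896 and 665 (-0.41 at 24 h, with 0.04 from its second probe set), and nhr-1 at 694, 563 and 863 (0.30). None of these passed 2-fold in any comparison. Of the receptors without an nhr name, daf-12 was at 410, 439 and 530 and sex-1 at 570.3, 642 and 421, while fax-1, odr-7 and unc-55 stayed below the floor. None of 5 coregulator genes and none of 6 genes of DAF-12 ligand synthesis passed 2-fold at either time. The shares of all genes were 0.951% higher and 1.87% lower at 4 h, and 2.98% and 4.67% at 24 h. No gene of the ligand list had a ratio above 0 against 0 h. Its gene emb-8 was at 776, 513 and 385 (-0.95 at 24 h). daf-36 was at 86.5 at 0 h and under the floor at both later times, at least 1.19-fold lower. The mediator subunit gene mdt-15, a partner of NHR-49, was at 175.6, 189.7 and 203, and the lipid regulator gene sbp-1 at 283, 361 and 510 (0.78 at 24 h).

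Many members of the family gave no signal above background. Of the 254 members, 133 (52.4%) were at or below the floor on all 3 arrays, against 38.8% of all genes, and 99 members were above it on every array. The median intensity of the members was 50.8, 51.0 and 58.1 at 0 h, 4 h and 24 h, below the floor each time, where that of all genes was 105.2, 102 and 104. The number of members above the floor was 107 (0 h), 107 (4 h) and 116 (24 h). Of the 11 pseudogenes, 1 was above the floor, nhr-144. A value under the floor does not show that the gene is silent, since a receptor used in few cells of the animal can fall below detection in RNA of whole worms.

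Among the 99 members above the floor on every array, 32 (32.3%) had values that were higher on each later array and 9 (9.09%) values that were lower on each. Among all genes above the floor on every array the shares were 24.1% and 25.6%. The same 99 members were also divided at a mean intensity of 200, a limit set after the data were seen. This division adds no independent reading. Up to 200, 32.3% of 62 members were higher at each step and 9.68% lower at each, against 24.0% and 14.7% of all genes. Above it, the shares were 32.4% and 8.11% of 37 members, against 24.2% and 29.6%. The steps were small, with a median log2 ratio at 24 h of 0.07 over the 99 members. The 5' to 3' ratios of the control transcripts and 6 of the 9 neuronal markers were also higher on each later array, and their part in this was not tested. The order was not tested either, as there is 1 array per time.

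By the WBcel235 gene table, 164 of the 254 members (64.6%) lie on chromosome V, against 24.6% of the other genes on the array. On chromosome V, 41.5% of the members were above the floor on at least 1 array, and 45.2% of the other genes. On the remaining chromosomes the shares were 58.9% of 90 members and 66.7% of the other genes. On chromosome I the members' share was 27.8% (5 of 18), against 72.6% of the other genes there. In gene order, 125 members lie directly beside another nhr gene, counting protein-coding genes and nhr pseudogenes. Of these 125, 41.6% were above the floor on at least 1 array, against 53.5% of the 129 that stand alone. On chromosome V alone these shares were 41.9% and 40.7%, and on the other chromosomes 8 of 20 and 45 of 70 (64.3%).

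**Figure D4:**
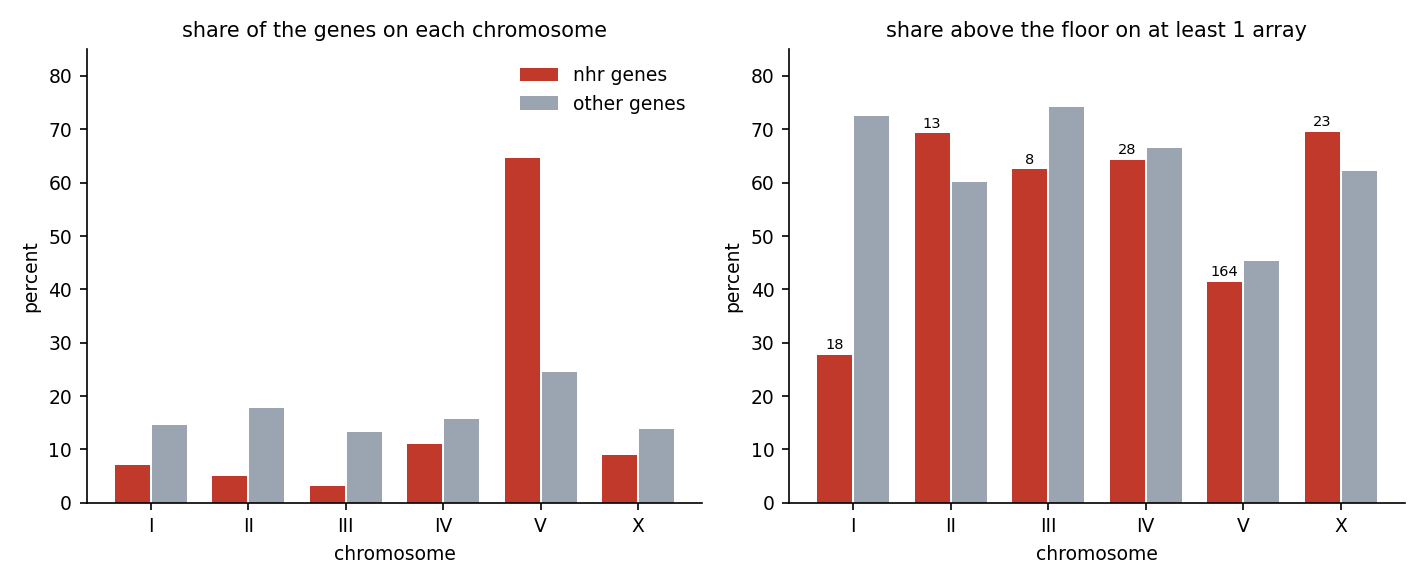
Left, percent of the nhr genes (red) and of the other genes on the array (grey) that lie on each chromosome; right, percent of each set above the background floor on at least 1 array, with the number of nhr genes printed over each red bar. Chromosome V holds 64.6% of the nhr genes, and its genes of both kinds are the least often above the floor except for the nhr genes of chromosome I.

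Different probe sets of one gene give the only repeat readings in the data. For 19 members with at least 2 probe sets above the floor on average, the brightest 2 were compared. The root mean square of their difference in log2 ratio, divided by the square root of 2, was 0.21 at 4 h against 0 h. It was 0.30 at 24 h against 0 h and 0.24 at 24 h against 4 h. Over 2112 genes of the array with such pairs it was 0.24, 0.46 and 0.29. This measure covers differences between probe sets and not between animals, cultures or arrays. It includes the mean difference, brighter minus dimmer, which was -0.13, -0.21 and -0.08 for the members in the 3 comparisons. The brighter probe set had the lower ratio in 14 of 19 members at 4 h and 13 of 19 at 24 h, and in 1570 and 1627 of the 2112 genes. The largest gap among members was 0.75 for nhr-3 at 4 h and 0.69 for nhr-66 at 24 h. The probe sets differed in sign at 24 h in 5 of the 19 members, nhr-34, nhr-46, nhr-65, nhr-71 and nhr-76, with the widest gap at nhr-46 (-0.11 and 0.53).

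Identical values between arrays also bear on the ratios. At 4 h against 0 h, 78 of the 254 members (30.7%) had exactly the same intensity, against 27.7% of all genes, and 57 (22.4%) did at 24 h against 0 h, against 17.7%. On all 3 arrays, 43 members were identical, 12 of them above the floor, including nhr-86 and nhr-48. A ratio of exactly 0.00 for these genes reflects values that the authors deposited as equal and is no measure of precision.

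**Figure D5:**
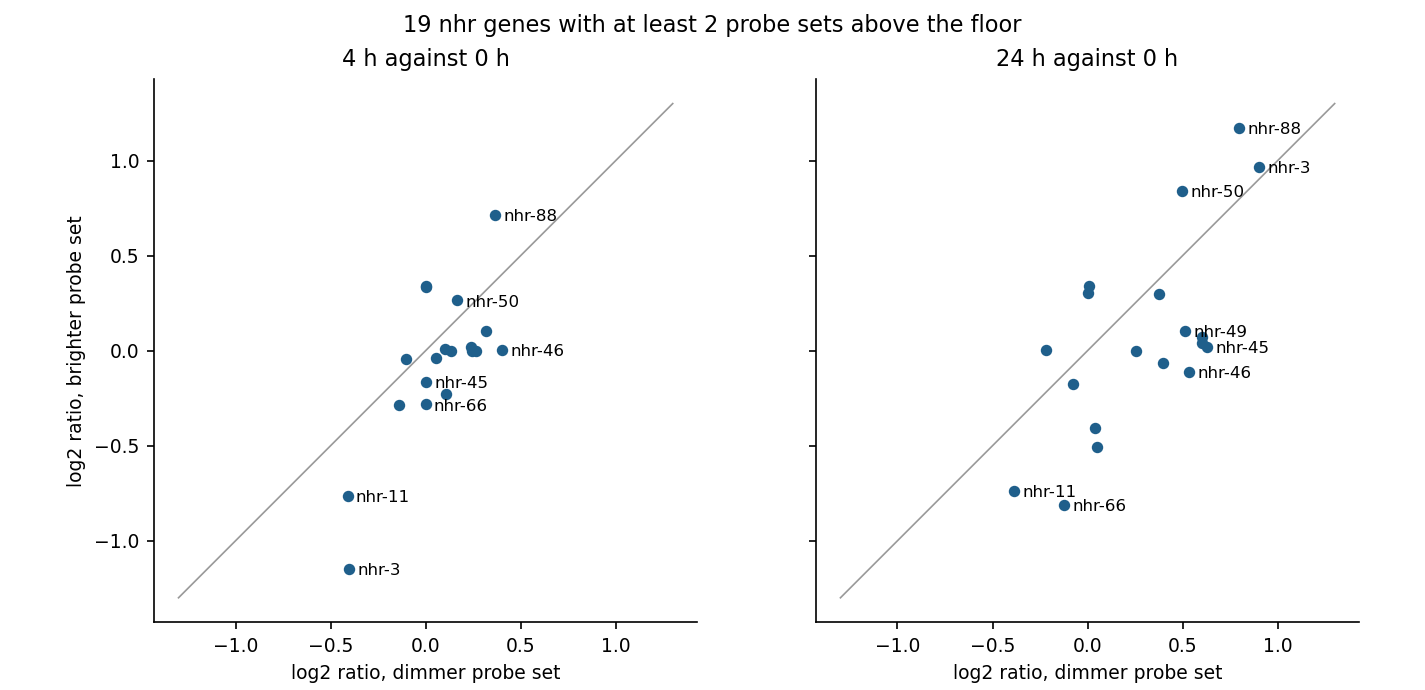
Log2 ratio from the brighter probe set (vertical axis) against that from the dimmer one (horizontal axis) for 19 nhr genes with at least 2 probe sets above the floor, at 4 h against 0 h (left) and 24 h against 0 h (right); the line marks equal ratios. Most points lie under the line (14 of 19 and 13 of 19), and nhr-3 at 4 h lies farthest from it.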

How the data were processed

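Total RNA of whole worms was labelled by a 3' in vitro transcription kit, per the labels' protocols, and measured on 3 Affymetrix arrays, 1 per time. The authors deposited normalized intensity values on a linear scale from 9.08 to 31806. The submitters' processing notes name Affymetrix Expression Console 1.1 together with MAS5 and RMA, without role or order, so scaling and the origin of identical values are unknown. Samples were grouped by exposure time. Of 22625 probe sets, 77 are controls, 20766 name 1 gene, 887 several and 895 none. With 32 added, log2 values of each gene's brightest probe set were compared, all genes counted, with a threshold of 2-fold and a floor of 67.8. The single arrays allowed no test. Named genes were those past 2-fold, the 10 brightest and 3 role lists, with pathway genes from fixed lists. The members, lists and rules were chosen with earlier results of these data known. Of all genes, 8634 reached the array median used as an alternative filter (77 members). Python 3.11.15, numpy 2.4.6, pandas 2.3.3, scipy 1.17.1, statsmodels 0.14.6 and matplotlib 3.10.9 were used.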

Additional observations from a re-analysis of the deposited data

Results flagged for a closer look

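nhr-17 and nhr-3 had ratios of opposite direction at the later times. The log2 ratio of nhr-17 against 0 h was -1.60 at 4 h and 0.62 at 24 h, and that of nhr-3 was -1.15 at 4 h and 0.97 at 24 h. With 1 array per time the difference was not tested. Among probe sets left out because they name several genes, the brighter one shared by nhr-88 and ZC239.1 was at 473 at 24 h and 199 at 0 h, a log2 ratio of 1.13, above the unexposed array.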

How the results depend on the processing

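No paired analysis was possible because each time has 1 array and the groups share a single replicate number. No array could be left out for the same reason. Of the 14 ratios of 10 genes past 2-fold, none changed sign under any of the alternatives run for them, and 5 stayed past 2-fold under all of them (nhr-114 and nhr-18 at 24 h against 0 h, nhr-17 at both its comparisons and nhr-3 at 24 h against 4 h). Of these genes, nhr-114, nhr-18 and nhr-17 have a single probe set, so alternatives in the choice of probe set could not move them. Both probe sets of nhr-3 are open to cross-hybridisation, so leaving such sets out was not run for it. With the dimmest probe set nhr-25 was at 0.11, nhr-88 at 0.46 and nhr-3 at -0.40 (4 h). That probe set of nhr-25 was under the floor on all arrays, and that of nhr-88 at 0 h and 4 h. Control scaling put nhr-114 at -0.98 and nhr-137 at -0.91 at 4 h, and nhr-137 at -0.96 at 24 h. A pseudocount of 100 put nhr-19 at 0.87 (24 h) and nhr-105 at 0.83 (24 h against 4 h), and nhr-133 at 24 h had 0.73 as its lowest value. At 4 h against 0 h (0 higher, 4 lower as reported), 6 were higher and 7 lower at 1.5-fold, among 580 and 868 of all genes. At 3-fold 1 was lower (95 of all genes), and with a pseudocount of 1, 2 were higher (243). Hybridisation control scaling gave 6 higher and 1 lower (580 and 136). At 24 h against 0 h (5 higher, 2 lower), 16 were higher and 6 lower at 1.5-fold, among 1432 and 1762 of all genes. At 3-fold there were 1 and 1 (144 and 343 of all genes), and with a pseudocount of 1, 8 and 4 (705 and 1013). Control scaling gave 27 and 1 (2138 and 338). Also at 24 h against 0 h, 3 were higher with a pseudocount of 100 (324 of all genes). The mean and the dimmest of a gene's probe sets gave 3 higher each too (468 and 526). Once a loess trend was removed, 4 were lower (830). At 24 h against 4 h (3 higher, 0 lower), 7 were higher and 1 lower at 1.5-fold, among 719 and 854 of all genes. With a pseudocount of 1, 5 were higher (339 of all genes), and with control scaling 5 (374). Other counts, including those under quantile normalization, median centring, the median filter and no floor, stayed within 1.5 times. Thresholds, pseudocounts and probe set choices set their change by construction, and control scaling moved the median of all genes by 0.41, 0.60 and 0.18 in the 3 comparisons. For the loess trend the cause was not tested. Members under the floor limit what could be seen.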
